A study of Mus musculus with 14 samples.

Results

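Nitric oxide (NO) synthesis and signalling was described through 9 genes, the rows of the count table with the symbols Nos1, Nos2, Nos3, Cav1, Ddah1, Ddah2, Arg2, Prkg1 and Pde5a, of 46095 gene symbols in all. RNA of the superior mesenteric artery, the branch of the abdominal aorta that feeds most of the gut, was sequenced from 14 C57BL/6 mice aged 8 weeks. WT mice carried Drp1 +/+ and were taken under normal conditions (n = 3) or after ischemia (n = 3). The mice called KO here were taken under normal conditions (n = 4) or after ischemia (n = 4), and their genotype is Drp1 flox/+ in the sample labels and heterozygous for a CRISPR/Cas9 frameshift allele in the paper. Whether the flox allele had been deleted, and in which cells, is not stated. Ischemia was a blood loss through a femoral artery catheter under pentobarbital, and its length is 2 h in the labels and longer in the paper. The library of WT normal mouse 3 carries another lane label (lane 1) than the other 13 (lane 8), so that this lane and this mouse cannot be told apart. The comparisons ask which genes of this system differ with the genotype and with ischemia. In the paper, vessel tone and NO homeostasis appear as terms of enrichment analyses, among processes that Drp1 may take part in.

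NO is made from arginine by the NO synthases. In arteries the endothelial enzyme NOS3 makes it continuously, NOS2 is the enzyme induced in inflammation, and NOS1 is the enzyme of nerves. Caveolin-1 (Cav1) holds NOS3 inactive in caveolae, the DDAH enzymes break down methylarginines that inhibit the synthases, and arginase 2 (Arg2) uses up arginine. In smooth muscle NO raises cyclic GMP, the kinase encoded by Prkg1 then relaxes the cell, and the phosphodiesterase encoded by Pde5a removes cyclic GMP.

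The libraries held 25612646 to 40255851 gene counts per mouse, and levels are given as CPM (counts scaled to a fixed library size, after TMM). At this depth 3 counts, used as the floor of what can be seen, are 0.0678 to 0.113 CPM. Of the 9 genes, 7 passed the filter on low counts and were tested beside 17693 genes in all. Ddah2 and Arg2 did not pass. Dnm1l, which encodes Drp1, had 63.8 to 90.9 CPM in WT and 54.8 to 62.2 CPM in KO mice under normal conditions, and 63.1 to 81.0 and 59.99 to 76.0 CPM after ischemia (edgeR FDR = 0.974 and 0.872 between genotypes). Counts over the whole gene do not show the targeted exon. For its KO mice the paper reports fewer reads of that exon, less Drp1 protein by western blot and weaker Drp1 staining in this artery. Tissue other than artery wall differed widely between libraries, as all 6 brown adipocyte markers were counted and their sum ran from 179.9 CPM in WT normal mouse 1 to 7058 CPM in WT normal mouse 2. Ucp1, which defines these cells, had 40.2 to 4072 CPM and Adipoq had 49.1 to 1392 CPM. All 8 smooth muscle markers summed to 7461 to 38024 CPM, lowest in WT normal mouse 2, with Myh11 at 2726 to 13667 CPM, and all 10 endothelial markers to 726 to 1966 CPM, with Pecam1 at 299 to 746 CPM. Over all mice, single markers had 1337 to 5186980 counts in the smooth muscle list and 257 to 206137 in the endothelial list, so few genes make up these sums. In such bulk RNA, fewer cells of a type and less RNA per cell cannot be told apart.

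None of the 7 tested genes was called in any comparison, where a call by edgeR's quasi-likelihood test needs a change of over 1.5-fold with an FDR under 0.05. Over all genes, 0% were called for the genotype under normal conditions, 0% for the genotype after ischemia, 0.0113% for ischemia in WT mice, 0.294% for ischemia in KO mice, 0% for the interaction, 0.927% for ischemia over both genotypes and 0% for the genotype over both conditions. At an unadjusted p under 0.05, 1 of the 7 passed for the genotype under normal conditions (Cav1, beside 5.25% of all genes), 1 for ischemia in WT mice (Nos2, beside 9.57%) and 1 for ischemia over both genotypes (Nos2, beside 18.1%). In the other comparisons 0 of the 7 passed that limit, beside 6.48% of all genes for the genotype after ischemia, 13.2% for ischemia in KO mice, 4.32% for the interaction and 7.77% for the genotype over both conditions. None of these 7 was called either when WT normal mouse 2, mouse 3 or both were left out. With DESeq2, 1 of the 7 was called, which was Nos2 for ischemia over both genotypes. In that comparison DESeq2 called 876 of the 17693 genes, against 164 in edgeR.

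**Figure D1:**
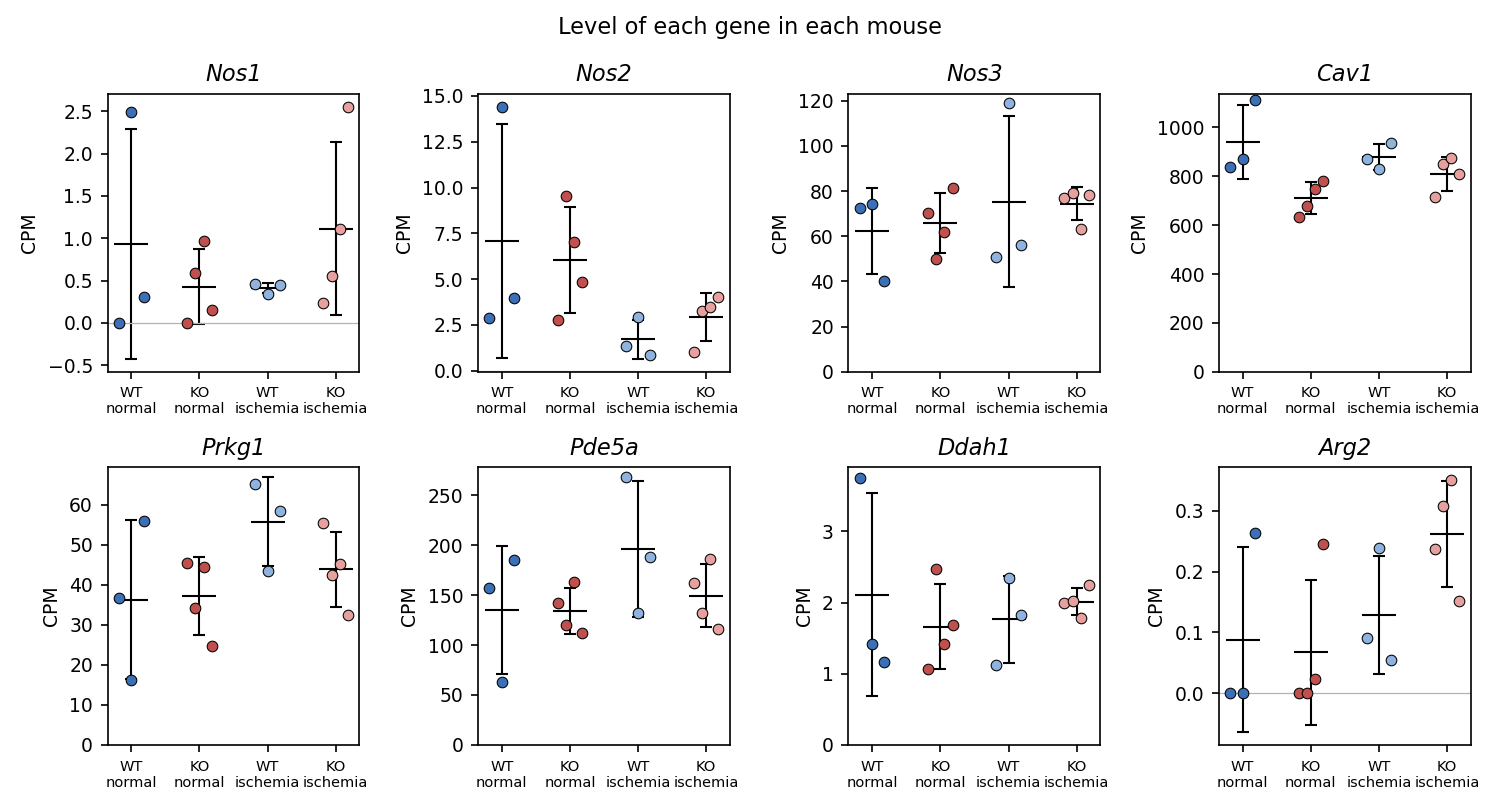
Level of 8 of the 9 genes in CPM in each mouse (points), with the mean (long dash) and SD (bars) of the 4 groups of 3 or 4 mice. Nos2 lies between 0.856 and 4.01 CPM in the ischemia groups, the Cav1 points of the KO normal mice lie below all WT normal points, and Ddah2, at 0 in all mice, is not drawn.

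Nos3 (chr5:24364810-24384474, + strand, GRCm38) encodes the endothelial synthase and was the main synthase transcript in each library. It had 72.6, 74.2 and 40.3 CPM in the WT normal mice and 70.4, 49.9, 61.8 and 81.1 CPM in the KO normal mice. After ischemia it had 50.7, 118.9 and 56.0 CPM in WT and 77.0, 79.1, 63.3 and 78.2 CPM in KO mice. All 4 groups overlapped. WT normal mouse 3 had the lowest level and WT ischemia mouse 2 the highest. The log2 fold change was 0.22 (SE 0.21, FDR = 0.591) for ischemia over both genotypes and 0.03 (SE 0.21, FDR = 0.978) for KO against WT over both conditions. The 95% interval of the second was 0.747- to 1.40-fold.

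Set against the mean of the 10 endothelial markers in the same library, Nos3 was 0.21 higher on the log2 scale in KO than in WT normal mice and 0.07 higher in KO than in WT ischemia mice. From normal conditions to ischemia the differences were 0.43 in WT and 0.29 in KO mice. None passed a two-sided exact permutation test, with p of 0.3 to 0.857, where the smallest possible p is 0.1 for 3 against 3 mice and 0.0286 otherwise. Exons of Nos3 share 294 bp (7.12%) with Atg9b and 1040 bp (25.2%) with Gm15587 on the other strand. Whether reads were counted by strand is not given in the sources used here, so reads of these genes cannot be told apart there. Atg9b itself had 0.486 to 7.58 CPM.

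Nos2 (chr11:78920787-78960254, + strand), the inducible synthase, had lower group means after ischemia in both genotypes, a difference that did not pass the adjusted test. Under normal conditions it had 2.86, 14.4 and 3.96 CPM in WT and 2.76, 9.52, 7.003 and 4.85 CPM in KO mice. After ischemia it had 1.37, 2.93 and 0.856 CPM in WT and 1.04, 3.26, 3.48 and 4.01 CPM in KO mice. The ranges overlapped in both genotypes, by the 2.86 and 2.93 CPM of a pair of mice in WT. The log2 fold change over both genotypes was -1.54 (SE 0.46, unadjusted p = 0.00505, FDR = 0.126), a ratio of 0.344 with a 95% interval of 0.173 to 0.684. It was -2.05 in WT mice (SE 0.71, FDR = 0.513) and -1.03 in KO mice (SE 0.59, FDR = 0.486) in the edgeR fit. The difference between these, 1.01 (SE 0.90, FDR = 0.946), did not pass the test. Between KO and WT mice over both conditions Nos2 differed by 0.28 on the log2 scale (SE 0.45, FDR = 0.883).

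WT normal mouse 2, with the highest Nos2, carried much of this difference. Without it the log2 fold change for ischemia was -1.01 over both genotypes and -1.01 in WT mice. DESeq2 gave -1.54 with an FDR of 0.0192, while the FDR ran from 0.0192 to 0.469 over the alternatives and from 0.0659 to 0.305 when 1 mouse at a time was left out. The same mouse had the highest brown adipocyte and the lowest smooth muscle marker sum. With the smooth muscle marker level as a covariate, chosen after seeing the data, the fold change was -0.70 (FDR = 0.469), and with the brown adipocyte marker level it was -1.28 (FDR = 0.0546). Macrophages, a known source of NOS2, were counted by all 6 markers, with summed levels of 116 to 259 CPM in WT normal, 142 to 441 in KO normal, 42.4 to 162 in WT ischemia and 98.7 to 241 CPM in KO ischemia mice. Their part in the Nos2 difference was not tested.

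Nos1 (chr5:117781032-117958840, + strand), the neuronal synthase, had 0 to 84 counts per mouse, up to 2.55 CPM. It had 0 counts in WT normal mouse 1 and KO normal mouse 1, and its groups overlapped in each comparison. Its lowest FDR over the 7 comparisons was 0.720. Within groups its counts ran from 0 to 70 in WT normal and from 8 to 84 in KO ischemia mice.

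Per kb of exon, Nos3 gave 83.7% to 98.6% of the summed level of the synthase genes in each mouse. The length is that of all annotated exons of a gene, not of the transcripts present, so genes are only roughly comparable. Reads of the genes that overlap Nos3 exons on the other strand could be part of its share. Nos2 gave 3.56% to 15.2% in WT normal and 3.55% to 15.1% in KO normal mice. After ischemia it gave 1.41% to 2.46% in WT and 1.25% to 4.86% in KO mice. The Nos2 shares of the WT groups did not overlap, while those of the KO groups and the Nos2 levels themselves did. With 3 against 3 mice the smallest possible exact p is 0.1, and 11.0% of all genes did not overlap in their levels in this comparison. Nos1 never gave more than 1.14%.

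**Figure D2:**
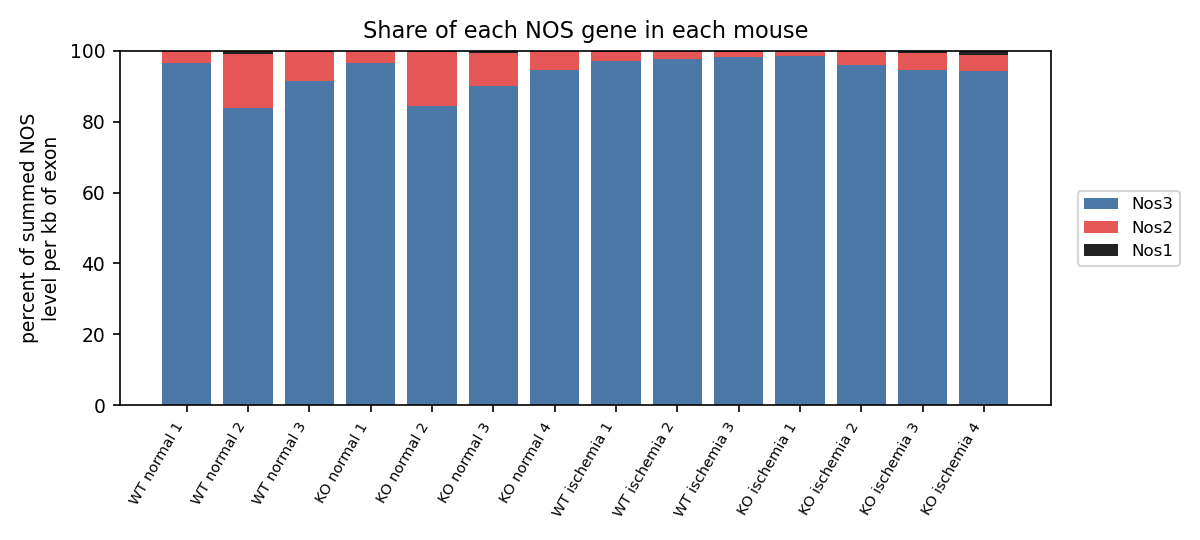
Percent of the summed level per kb of exon of the synthase genes that Nos3, Nos2 and Nos1 gave in each of the 14 mice (stacked bars, full height 100%). Nos3 fills 83.7% to 98.6% of each bar, and the Nos2 part is largest in WT normal mouse 2 and KO normal mouse 2.

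Cav1 (chr6:17306335-17341452, + strand) encodes caveolin-1, the caveolar protein that binds NOS3, and was the most abundant of the 9 genes per kb, at 184 to 323 CPM per kb against 9.75 to 28.8 for Nos3. Under normal conditions its level was 837, 869 and 1113 CPM in WT and 635, 678, 748 and 783 CPM in KO mice. Every KO normal mouse lay below every WT normal mouse, and the groups of 4.50% of all genes did not overlap in this comparison, in either direction. The log2 fold change was -0.40 (SE 0.18, FDR = 0.937), which did not pass after adjustment, with a 95% interval of 0.577- to 0.991-fold. After ischemia it had 870.7, 829.5 and 936 CPM in WT and 715, 849, 873 and 808 CPM in KO mice. There the groups overlapped, with a log2 fold change of -0.12 (SE 0.18, FDR = 0.882). Over both conditions the genotype difference was -0.26 (SE 0.13, FDR = 0.658) and that of ischemia over both genotypes was 0.05 (SE 0.13, FDR = 0.869). WT normal mouse 3, the library of the other lane, had the highest Cav1, and without it the log2 fold change under normal conditions was -0.26. Relative to the endothelial markers, Cav1 differed by -0.30 between KO and WT normal mice (exact permutation p = 0.543), by -0.14 after ischemia (p = 0.657), and by 0.13 (p = 0.8) and 0.29 (p = 0.343) with ischemia in WT and KO mice. Smooth muscle cells and adipocytes also make caveolin-1.

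Ddah1 (chr3:145758675-145894277, + strand), which breaks down the inhibitor asymmetric dimethylarginine, was low, at 1.07 to 3.75 CPM or 31 to 127 counts. The highest mouse was WT normal mouse 1 and the lowest KO normal mouse 1, and the groups overlapped throughout. Its log2 fold change was 0.01 (SE 0.34, FDR = 0.995) for ischemia over both genotypes and -0.08 (SE 0.34, FDR = 0.965) for the genotype over both conditions. The sign of both changed with the processing.

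Ddah2 (chr17:35059035-35062095, + strand), its paralog, was listed at 0 in all 14 mice. It lies in an unbroken stretch of 29 protein-coding genes over 330.2 kb that had at most 3 counts each over all mice, and 26 of them had 0. The stretch held 5 counts in sum. It included Bag6, Csnk2b, Clic1 and Prrc2a, genes that most cells use, all at 0, and Ddx39b at 1 count. The first genes outside it, Vars and H2-Q4, had 123 and 13468 counts. Beyond Vars, counts over all mice were low for further genes, such as Lsm2 (6), Agpat1 (119) and Brd2 (89). Tnxb and C4b on that side had 4418 and 6694. The ends of the stretch thus depend on the limit of 3 counts. Among all 20664 protein-coding genes matched to the table, 19.5% were at 0. Of the 1600 windows of 50 bases in the Ddah2 transcripts, 0 occurred in the GENCODE M21 transcripts of another gene. Sequence outside those transcripts, such as other haplotypes of this region, was not searched. A level of 0 among such neighbours gives no information on Ddah2 in the artery, and the cause was not tested.

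**Figure D3:**
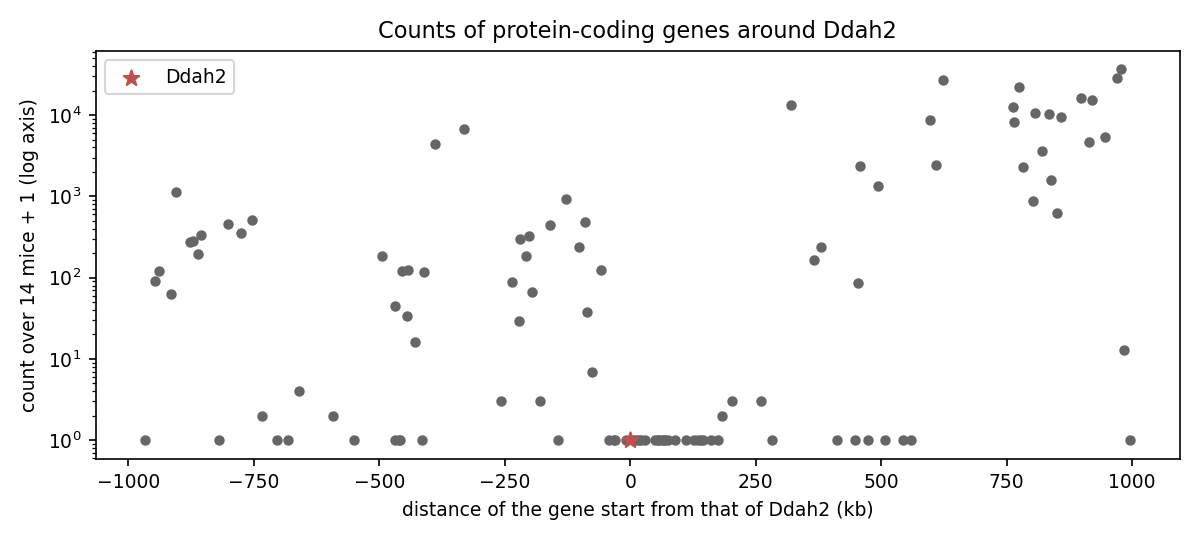
Count over the 14 mice plus 1 (log axis) of each protein-coding gene matched to the table, against the distance of its start from that of Ddah2 in kb. Ddah2 (star) is 1 of 29 genes in a row with at most 3 counts each.

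Arg2 (chr12:79130777-79156301, + strand), the mitochondrial arginase that competes with the synthases for arginine, had 0 to 12 counts per mouse. It had 0, 0 and 7 counts in WT normal, 0, 0, 1 and 8 in KO normal, 3, 7 and 2 in WT ischemia and 8, 10, 12 and 5 in KO ischemia mice. The groups overlapped, and no fold change was computed. Arg2 exons share 285 bp (19.96%) with Vti1b on the other strand, which had 55.4 to 80.6 CPM, so reads of Vti1b could be among these few counts.

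Prkg1 (chr19:30564489-31765033, - strand) encodes the cyclic GMP-dependent protein kinase of smooth muscle. It had 36.6, 16.3 and 56.0 CPM in WT normal, 45.4, 34.2, 44.3 and 24.6 in KO normal, 65.2, 43.5 and 58.4 in WT ischemia and 55.3, 42.5, 45.2 and 32.4 CPM in KO ischemia mice. Pde5a (chr3:122728947-122859374, + strand), the phosphodiesterase that ends the cyclic GMP signal, had 157, 63.1 and 185 CPM in WT normal, 142, 120.1, 163 and 112 in KO normal, 268, 132 and 188 in WT ischemia and 162, 132, 186 and 116 CPM in KO ischemia mice. WT normal mouse 2 was lowest and WT ischemia mouse 1 highest for both genes, and all groups overlapped. For ischemia over both genotypes the log2 fold change was 0.43 (SE 0.24, FDR = 0.364) for Prkg1 and 0.34 (SE 0.23, FDR = 0.448) for Pde5a in edgeR. It was 0.62 in WT and 0.24 in KO mice for Prkg1, and 0.54 and 0.15 for Pde5a, none with an FDR under 0.559. Without WT normal mouse 2 the values in WT mice were 0.25 and 0.18. The genotype over both conditions gave -0.16 (SE 0.24, FDR = 0.876) for Prkg1 and -0.20 (SE 0.23, FDR = 0.833) for Pde5a, and the 95% intervals ran from 0.626- to 1.29-fold and from 0.614- to 1.23-fold.

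**Figure D4:**
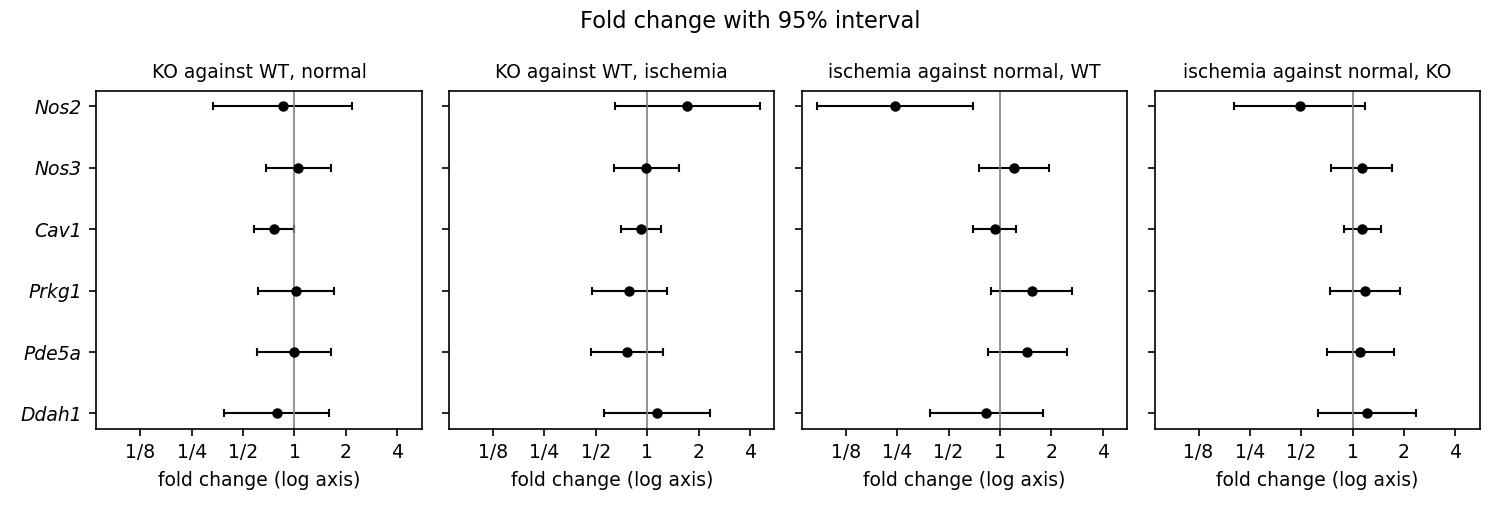
Fold change (points, log axis) with its 95% interval (bars) from the edgeR fit of all 14 mice, for 6 genes in 4 comparisons. The interval of Nos2 for ischemia in WT mice (0.0843 to 0.696) and that of Cav1 for KO against WT under normal conditions (0.577 to 0.991) leave out 1, and both have an adjusted p above 0.05.

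The levels of Prkg1 and Pde5a rose and fell together across mice. Over the 14 mice Pearson's r of log2 CPM was 0.93 and Spearman's rho 0.92 (permutation p = 1e-05 for each, the smallest that 100000 permutations can give, and adjusted p = 0.00029 over 29 relations). Pearson's r was 0.83 without the 2 mice farthest from the median of Pde5a. It was 0.92 within lane 8 and 0.91 after the group means were taken out. No other pair of the tested genes was among the 29 relations, and the rest set a gene against a marker level. The adjusted p of this pair thus does not cover its choice among the possible pairs of genes. The marker level used for correlations and covariates is the mean log2 CPM of a list, not its sum, so each marker weighs the same. Tagln, at 1337 counts over all mice, thus weighs as much as Acta2, at 5186980. The lowest endothelial marker was Cldn5, at 257 counts. Correlations and covariate fits were not repeated with single markers left out. Prkg1 and Pde5a both followed the smooth muscle marker level. Prkg1 had r = 0.87 (adjusted permutation p = 0.00181) and rho = 0.74 (adjusted p = 0.016). Pde5a had r = 0.84 (adjusted permutation p = 0.00181) and rho = 0.69 (adjusted p = 0.0254). Without WT normal mouse 2 and KO normal mouse 4, these r were 0.62 and 0.60. Within lane 8 they were 0.87 and 0.83. Nos2 moved against the smooth muscle markers, with r = -0.81 (adjusted permutation p = 0.0022) and rho = -0.78 (adjusted p = 0.0122), which was -0.76 without the same 2 mice, -0.85 within lane 8 and -0.74 after the group means were taken out. Nos3, Cav1 and Ddah1 had r of -0.22, 0.24 and -0.02 with this level, none with an adjusted p under 0.568.

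The endothelial marker level ran the other way. Prkg1 had r = -0.83 (adjusted permutation p = 0.00181) and rho = -0.84 (adjusted p = 0.00435) with it, and Pde5a r = -0.785 (adjusted p = 0.00498) and rho = -0.74 (adjusted p = 0.016). Nos2 had r = 0.74 (adjusted p = 0.0129) and rho = 0.67 (adjusted p = 0.0293) with it, but r = 0.49 without WT normal mouse 2 and KO ischemia mouse 1. Nos3, the endothelial synthase, had r = 0.40 (adjusted p = 0.281) and rho = 0.53 (adjusted p = 0.121), and r = 0.64 without the same 2 mice. With the brown adipocyte marker level, Nos2 had r = 0.64 (adjusted permutation p = 0.0441) and rho = 0.80 (adjusted p = 0.00967), and with the macrophage marker level r = 0.54 (adjusted p = 0.106) and rho = 0.50 (adjusted p = 0.139). Prkg1 and Pde5a also ran against the brown adipocyte level. Prkg1 had r = -0.58 (adjusted permutation p = 0.0838) and rho = -0.71 (adjusted p = 0.0211) with it. Pde5a had r = -0.66 (adjusted permutation p = 0.0341) and rho = -0.74 (adjusted p = 0.016). The r of Nos2 with the endothelial, brown adipocyte and macrophage levels within lane 8 were 0.77, 0.64 and 0.57, and without the 2 farthest mice the r with the brown adipocyte and macrophage levels were 0.77 and 0.33.

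**Figure D5:**
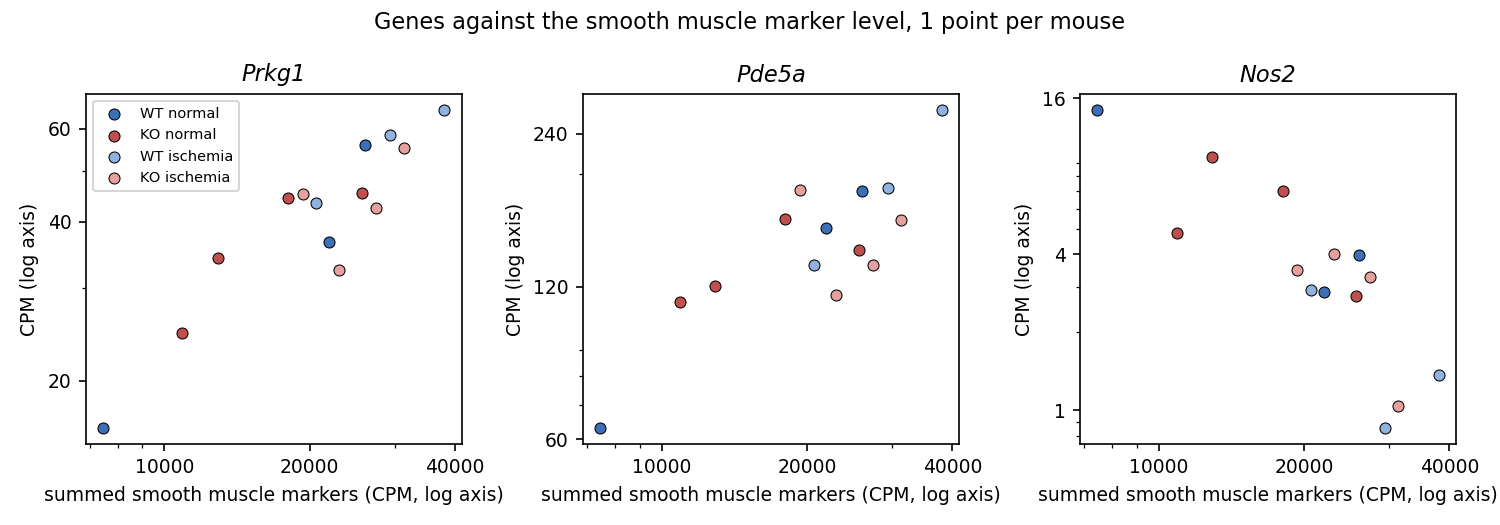
Level of Prkg1, Pde5a and Nos2 in CPM against the summed CPM of the 8 smooth muscle markers, 1 point per mouse, both axes logarithmic, coloured by group. Prkg1 and Pde5a rise with the marker sum and Nos2 falls, and WT normal mouse 2 lies at the left end of each panel (7461 CPM).

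The smooth muscle marker sum was 7461 to 26027 CPM in WT normal, 10901 to 25649 in KO normal, 20654 to 38024 in WT ischemia and 19358 to 31279 CPM in KO ischemia mice. The mean log2 marker level was 0.61 higher after ischemia in WT mice (exact permutation p = 0.4) and 0.50 higher in KO mice (p = 0.0571), in the direction of the Prkg1 and Pde5a differences. With this level as a covariate, chosen after seeing the data, the ischemia differences over both genotypes were 0.06 for Prkg1 and -0.00285 for Pde5a. The covariate moved with both genes across mice, so smooth muscle content and level per cell cannot be told apart by this fit. The cause of the differences was not tested. Set against the smooth muscle markers, Prkg1 differed by 0.32 between KO and WT normal mice (exact permutation p = 0.286) and by -0.09 after ischemia (p = 0.857). With ischemia the differences were 0.16 in WT (exact permutation p = 0.5) and -0.24 in KO mice (p = 0.371). No p adjusted over the 12 tests of this kind, those of Nos3 and Cav1 included, was under 0.814.

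Prkg1 is transcribed from separate start sites, and Cav1 was the gene whose normal groups did not overlap, so the 250 bases before their start sites are shown, as RefSeq gives them on GRCm38.p6. Capitals mark GGGCGG, the core of an Sp1 site, and TATAAA, both searched on either strand with no overlap between them. The first Prkg1 window is chr19:31765034-31765283 (- strand), the second, inside the gene, is chr19:31664371-31664620 (- strand), and the first of the 2 windows of Cav1 is chr6:17306085-17306334 (+ strand).
Prkg1 first start: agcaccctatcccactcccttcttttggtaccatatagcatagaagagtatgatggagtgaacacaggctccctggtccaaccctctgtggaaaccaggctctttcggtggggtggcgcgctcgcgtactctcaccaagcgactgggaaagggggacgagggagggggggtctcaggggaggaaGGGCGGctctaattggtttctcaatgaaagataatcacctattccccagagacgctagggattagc
Prkg1 second start: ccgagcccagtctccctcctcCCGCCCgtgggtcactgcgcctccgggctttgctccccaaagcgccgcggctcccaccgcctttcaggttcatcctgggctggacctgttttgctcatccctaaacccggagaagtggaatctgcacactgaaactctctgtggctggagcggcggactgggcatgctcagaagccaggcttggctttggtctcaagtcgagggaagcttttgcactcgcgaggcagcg
Cav1 first start: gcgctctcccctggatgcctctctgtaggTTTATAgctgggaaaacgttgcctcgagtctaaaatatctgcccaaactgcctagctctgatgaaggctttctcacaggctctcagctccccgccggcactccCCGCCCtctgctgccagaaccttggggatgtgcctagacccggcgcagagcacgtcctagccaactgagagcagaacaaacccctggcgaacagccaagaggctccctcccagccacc
RefSeq windows were found for 6 of the 9 genes. GGGCGG lay at -66 from the first and -229 from the second Prkg1 start, at -118 from the first Cav1 start and at -82 from that of Pde5a (bases before the start). The Ddah2 window held 2 matches. The motif was not in the second Cav1 window, chr6:17307390-17307639, nor in those of Ddah1 and Nos1, and was held by 32.7% of the 32851 windows of this length. The CArG box, bound by the serum response factor at many smooth muscle genes, was in none of the windows of the 6 genes and in 1.47% of all windows. CACGTG, an E-box, was in none of them and in 6.02% of all. TATAAA was in the first Cav1 window, in none of the others of these genes, and in 12.4% of all. These matches are letters in a window, not sites shown to be bound.

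The genes whose log2 CPM was most like that of each of the 7 tested genes over the 14 mice were the best of 17693 and are given as a description. Prkg1 was most like Pcdh7 (r = 0.98) and Cald1 (r = 0.97), the second of which encodes caldesmon, an actin-binding protein of smooth muscle. Pde5a was most like Cped1 (r = 0.96) and Tshz1 (r = 0.95). Nos2 was most like Gprc5b (r = 0.91) and Ebf2 (r = 0.91), the second a transcription factor of brown fat precursors. Nos3 was most like LOC102640526 and Arhgap8 (r = 0.86 and 0.85), Cav1 like Mkln1 and Nars (r = 0.87 and 0.86), Ddah1 like Fam25c and Kif20a (r = 0.88 and 0.84), and Nos1 like Gm15519 and Gm12166 (r = 0.89 and 0.88). Library, depth and tissue makeup are shared by all such pairs.

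Of 67 further genes of the NO system, in 7 lists, 64 were tested. For ischemia over both genotypes 1 of them was called, and 13 (20.3%, beside 18.1% of all genes) had an unadjusted p under 0.05, all higher after ischemia. The called gene was Slc7a1, which encodes the arginine transporter CAT-1. Slc7a1 had 42.7, 15.7 and 43.9 CPM in WT normal, 33.6, 20.6, 22.7 and 18.4 in KO normal, 48.3, 80.1 and 66.2 in WT ischemia and 70.8, 60.6, 57.0 and 58.8 CPM in KO ischemia mice. The ischemia and normal groups did not overlap in either genotype, which held for 11.0% of all genes in WT and 11.1% in KO mice. Its log2 fold change was 1.15 (SE 0.23, edgeR FDR = 0.0299) over both genotypes, higher in 7 of 7 ischemia mice than in any normal mouse, 0.93 in WT (SE 0.34, FDR = 0.513) and 1.38 in KO mice (SE 0.30, FDR = 0.078). The call was lost when 1 of 9 mice was left out, which were KO normal mice 2, 3 and 4, WT ischemia mice 2 and 3 and KO ischemia mice 1, 2, 3 and 4. Its FDR was 0.0238 to 0.0851 and its log2 fold change 0.98 to 1.27 over the 14 mice left out in turn. The comparison within KO mice, not called here, was called by DESeq2 (FDR = 0.00195), in a fit of only the groups compared (FDR = 0.0132), with the brown adipocyte level as a covariate (FDR = 0.0213), without WT normal mouse 2 (FDR = 0.00849) and without WT normal mice 2 and 3 (FDR = 0.0104).

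Slc7a1 belongs to the list of arginine supply and methylarginine genes. There 5 of 11 tested genes (45.5%), Slc7a1 included, had an unadjusted edgeR p under 0.05 for ischemia over both genotypes, beside 18.1% of all genes. All 5 were higher, and the direction over all genes was not counted. No list was tested as a set. Prmt1, which makes asymmetric dimethylarginine, was the second by p (edgeR FDR = 0.125), with 26.3 to 37.9 CPM in WT normal and 26.1 to 33.2 in KO normal mice against 27.5 to 48.1 in WT ischemia and 39.8 to 50.9 CPM in KO ischemia mice. Beside the same 18.1% of all genes, 4 of 18 synthase partners (22.2%) passed that limit on p. So did 3 of 9 cyclic GMP kinase targets (33.3%) and 1 of 9 phosphodiesterases (11.1%). Of the cyclic GMP receptors (6 tested), the tetrahydrobiopterin genes (7) and the genes that remove NO (4), none passed. Between KO and WT mice 0 of the 64 were called in either condition or over both. The smallest p for the genotype belonged to Arg1 and Slc7a2 under normal conditions to Mb and Cav2 after ischemia and to Mb and Arg1 over both conditions. Arg1, the other arginase, had 0 counts in the WT normal mice and 7 to 51 counts in the KO normal mice (FDR = 0.866). Mb, which encodes the NO-consuming myoglobin, had 1.28 to 1217 CPM in KO ischemia mice against 0.0552 to 1.39 in WT ischemia mice (FDR = 0.715), and all 6 skeletal muscle markers summed to 7.04, 6.51, 29.5 and 166.6 CPM in those KO mice, with Mb at 1.28, 5.01, 182 and 1217 CPM in the same order. Cav2, the caveolin that pairs with caveolin-1, had 57.9 to 67.7 CPM in KO and 77.2 to 94.0 CPM in WT ischemia mice, without overlap, beside 10.7% of all genes (FDR = 0.715). For ischemia in WT mice Trpc6, a cation channel that the kinase acts on, had the lowest p after Slc7a1, at 0.642 to 2.49 CPM under normal conditions and 0.034 to 0.414 CPM after ischemia (FDR = 0.513). The smallest p for ischemia in KO mice belonged to Slc7a1 and Prmt1, and for the interaction to Slc7a2 and Cygb (a globin that removes NO), both with an FDR of 0.946. Slc7a2, another arginine transporter, had 30.9 to 67.3 CPM in KO normal mice and 21.4 to 45.0 CPM in the others, and Cygb had 101.7 to 533 CPM in KO normal mice and 44.2 to 215.5 CPM in the others.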

How the data were processed

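RNA was extracted with Trizol per the labels. The authors deposited whole-number read counts per gene symbol and mouse, without normalization or pooling. The submitters' processing notes name HISAT2 2.0.4 and mm10. The counting program, annotation and use of strand are not given in the sources used here.

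The 9 genes and all lists were chosen with earlier results of these data known. Counts were tested in R 4.3.3 with edgeR 4.0.16 (filterByExpr by group, TMM, quasi-likelihood test, Benjamini-Hochberg adjustment over 17693 genes, all 14 mice in 1 fit), and with DESeq2 1.42.0 as an alternative. The steps were tested on simulated counts. Log2 CPM used a prior count of 2. Levels relative to marker lists were compared by two-sided exact permutation tests, and correlations by 100000 permutations. The named genes are the 9, the 2 most like each tested one, Dnm1l, and 4 defining markers. From the NO lists they are those called and the 2 with the smallest p per comparison. Also named are the lowest and highest counted smooth muscle markers, the lowest counted endothelial marker, and genes near or overlapping the 9. Coordinates, exon lengths and overlaps come from GENCODE M21 (GRCm38). Same-numbered mice are different mice, and r of their deviations was -0.15 to 0.32 over 19 pairs, with 11 pairs over 0.1. Whether mice of the same number shared a batch was not tested. The 18 pairs of mice within groups all differed by more than sampling noise. Each SE of a fold change is the absolute log2 fold change over the square root of the F statistic of the edgeR test. The 95% intervals of fold changes use this SE with a t quantile. They include the spread between mice, while the floors of 3 counts cover counting error only. Other scalings, filters, fits, covariates and each mouse left out were tried.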

Additional observations from a re-analysis of the deposited data

Results flagged for a closer look

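In groups of 4 mice, 1 mouse lay far from the other 3 in 5 of 44 groups. The 44 include the Ddah2 groups, where all values are 0 and no mouse could be flagged. The limit used gives about 1 in 20 for independent, normally distributed values. Here some values are near 0 and some groups describe the same gene, so that rate need not hold. Nos3 was 63.3 CPM in KO ischemia mouse 3, below 77.0 to 79.1 CPM in the others. Arg2 was 0.245 CPM (8 counts) in KO normal mouse 4, above 0 to 0.0226 CPM. In the same mouse Arg1 was 1.56 CPM, above 0.158 to 0.395 CPM, and Mb was 141 CPM, above 1.72 to 25.2 CPM. Mb was 1217 CPM in KO ischemia mouse 4, above 1.28 to 182 CPM, and the skeletal muscle marker sum of that mouse, 166.6 CPM, was also the highest of the 14.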

How the results depend on the processing

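The count of the 7 tested genes called stayed at 0 in each comparison under each alternative, except for 1 (Nos2) for ischemia over both genotypes in DESeq2. Over all genes, DESeq2 called 50 between genotypes under normal conditions, 32 after ischemia, 112 for ischemia in WT and 613 in KO mice, 13 for the interaction, 876 for ischemia over both genotypes and 91 for the genotype over both conditions. Fits of only the groups compared called 0 for ischemia in WT and 267 in KO mice. With the replicate block, which pairs different mice, 0 were called for ischemia in WT mice and 1 for the genotype over both conditions, and the Prkg1 genotype difference turned to 0.041. With the brown adipocyte level as a covariate the counts were 1 for the genotype under normal conditions, 309 for ischemia in KO mice, 436 over both genotypes and 4 for the genotype over both conditions, and the genotype differences over both conditions turned to -0.37 for Nos2, -0.049 for Nos3, 0.18 for Prkg1, 0.20 for Pde5a and 0.14 for Ddah1. With the smooth muscle level (chosen after seeing the data) they were 4 and 99 for ischemia in WT and KO mice, ischemia turned to -0.13 for Prkg1 in KO mice and to -0.19 in KO mice and -0.00285 over both genotypes for Pde5a, and the genotype to -0.00536 for Nos3, 0.090 for Prkg1 and 0.052 for Pde5a. Without WT normal mice 2 and 3 (also chosen after seeing the data) the counts were 132 for the genotype under normal conditions, 0 and 207 for ischemia in WT and KO mice, 59 over both genotypes and 689 for the genotype over both conditions. Slc7a1 then lost its call (FDR = 0.0677), Nos2 turned to -0.28 for the interaction, Nos3 to -0.032 for the genotype and Ddah1 to -0.36 for ischemia. The Ddah1 value for ischemia was also -0.020 with upper-quartile scaling and -0.00348 with at least 10 counts in every mouse. Leaving out 1 mouse at a time gave 0 to 29 genes for the genotype under normal conditions, 0 to 3 for ischemia in WT, 5 to 174 in KO mice, 60 to 361 over both genotypes and 0 to 102 for the genotype over both conditions, the counts of 29, 174 and 102 without WT normal mouse 2, 361 without WT normal mouse 1, 60 without KO normal mouse 2 and 5 without KO normal mouse 3. The ranges that crossed 0 were, for the genotype over both conditions, -0.22 to 0.30 (Ddah1), -0.086 to 0.30 (Nos3) and -0.32 to 0.073 (Prkg1), for ischemia over both genotypes, -0.14 to 0.37 (Ddah1) and -0.021 to 0.33 (Nos3), for levels relative to markers between genotypes after ischemia, -0.37 to 0.054 (Cav1), -0.17 to 0.26 (Nos3) and -0.21 to 0.092 (Prkg1), between genotypes under normal conditions, -0.67 to 0.051 (Cav1), and for ischemia in WT mice, -0.25 to 0.48 (Cav1) and -0.018 to 0.25 (Prkg1). Relative Prkg1 after ischemia between genotypes also turned to 0.074 with 1 marker left out. The cause of these shifts was not tested. Counts of Nos1, Ddah1 and Arg2 did not exceed 127 per mouse, and whether depth limited their comparisons was not tested.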
